A study of Mus musculus with 10 samples.

Results

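The complement genes described here are 9 components and regulators of the complement system, chosen by gene name: C3, Cfb, C1ra, C1s1, C2, C4b, Serping1, Cd55 and Cd59a (C3, CFB, C1RA, C1S1, C2, C4B, SERPING1, CD55 and CD59A in capitals, the form used for matching). They are 9 of 24755 genes in a table of RNA sequencing values, and each was found on a row of its own. The table covers 10 libraries made from tumor cells of mouse pancreatic ductal adenocarcinoma (PDAC), collected by flow cytometry for surface PD-L1 20 hours into the experiment. PD-L1 is the protein that binds the receptor PD-1 and restrains T cells. The agent was recombinant mouse interferon gamma (IFNγ), a cytokine of activated T cells and natural killer cells, at a dose the labels do not state. Of the libraries, 3 came from IFNγ-treated cells with high PD-L1 (PD-L1 high), 3 from IFNγ-treated cells of all PD-L1 levels (treated all) and 4 from cells without IFNγ of all PD-L1 levels (untreated all). Treated all may itself contain cells with high PD-L1, and no group has low PD-L1. The strain label reads C57BL/7, C57BL/8 and C57BL/9 for PD-L1 high libraries 1, 2 and 3, and C57BL/6 for every other library. The labels name no cell line, tumor genotype or number of cultures, and the p-values below therefore reflect only how these libraries vary, which may be technical.

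Complement is a cascade of plasma and membrane proteins that tags cells and microbes for removal. In the classical pathway the proteases C1r and C1s, bound to the recognition protein C1q, cut C4 and C2 to form an enzyme that cleaves C3. In the alternative pathway factor B, the product of Cfb, forms a second C3-cleaving enzyme that amplifies the reaction. Serping1 encodes the C1 inhibitor, which blocks C1r and C1s, while Cd55 and Cd59a encode surface proteins that limit C3 cleavage and the membrane attack complex. The liver makes most plasma complement, and epithelial cells also transcribe several components.

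RefSeq promoter windows (assembly GRCm38.p6) were found for 5 of the 9 genes, C1ra, C1s1, C3, Cd55 and Cd59a, and not for Cfb, C2, C4b and Serping1. Each window runs 5′ to 3′ on the gene's strand over 300 bases, of which 250 lie before the start and 50 from the start base on. Of these genes C1ra, C1s1 and C3 had the differences described below, and their windows are shown for that reason. Capitals mark matches, on either strand, to 2 motifs: GAAANNGAA, part of the interferon-stimulated response element, and GGNNNTTCC, part of an NF-kB site.
C1ra (chr6:124512371-124512670, plus strand): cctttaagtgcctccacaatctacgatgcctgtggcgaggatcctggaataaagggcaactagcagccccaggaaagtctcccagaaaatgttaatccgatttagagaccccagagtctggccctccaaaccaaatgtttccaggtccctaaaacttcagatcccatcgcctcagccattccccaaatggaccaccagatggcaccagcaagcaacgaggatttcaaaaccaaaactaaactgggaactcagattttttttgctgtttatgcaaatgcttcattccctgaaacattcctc
C1s1 (chr6:124542310-124542609, minus strand): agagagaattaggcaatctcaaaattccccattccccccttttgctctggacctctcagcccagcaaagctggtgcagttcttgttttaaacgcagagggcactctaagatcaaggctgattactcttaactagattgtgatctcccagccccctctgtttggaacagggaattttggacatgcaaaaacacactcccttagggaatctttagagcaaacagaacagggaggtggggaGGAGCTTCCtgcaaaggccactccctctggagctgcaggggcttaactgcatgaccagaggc
C3 (chr17:57228087-57228386, minus strand): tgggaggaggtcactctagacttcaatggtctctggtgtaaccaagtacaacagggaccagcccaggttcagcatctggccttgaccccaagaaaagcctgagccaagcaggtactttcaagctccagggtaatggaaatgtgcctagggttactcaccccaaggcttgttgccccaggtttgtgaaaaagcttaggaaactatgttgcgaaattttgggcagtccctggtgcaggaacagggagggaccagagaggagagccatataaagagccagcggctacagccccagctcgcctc
Counting the start base as 0, the C1s1 match GGAGCTTCC lay at −12 to −4 and fits the second motif. A window from another C1s1 start overlaps this one and holds the same match. Neither motif was found in the C1ra or the C3 window. Of the 2 other genes with windows, Cd55 had a match to the second motif and Cd59a to the first. No 2 matches overlapped. Of all 32851 RefSeq promoter windows, 8.56% held the first motif and 18.5% the second, so a match is a description of letters only.

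Each gene has a normalized signal of unstated unit, so the read depth behind it is unknown and levels are not compared between genes. Fold changes are on the scale log2(signal + 1), which understates those of low genes, and are given ± SE from limma, fitted to all 10 libraries. Genes whose signal averaged 1 or more over the libraries, 11487 in number, were tested, and a gene was called at a Benjamini-Hochberg adjusted p under 0.05. Cd274, which encodes PD-L1, ran from 46.2 to 48.5 in PD-L1 high, 32.2 to 33.6 in treated all and 2.39 to 2.79 in untreated all. Untreated libraries 3 and 4 do not look independent of libraries 1 and 2. Over the tested genes, the median gap between the means of the 2 pairs was 0.0026 in log2 units, against 0.052 and 0.066 for the other pairings. The complement genes share this: C3 averaged 18.19 in libraries 3 and 4 and 18.19 in 1 and 2, and C1ra 28.23 and 28.23. Values without libraries 3 and 4 are therefore given beside the calls. Keratin and other epithelial markers were all expressed, at summed signals of 4771 to 4836 in PD-L1 high, 5210 to 5242 in treated all and 4257 to 4415 in untreated all. Of 7 leukocyte and macrophage markers only Cd14 and Cd68 averaged at least 1, Adgre1 was at 0 in all libraries and Ptprc reached at most 0.159. That list summed to 103 to 104.2 in PD-L1 high, 93.9 to 95.3 in treated all and 67.5 to 69.7 in untreated all. Fibroblast markers summed to 19.8 to 20.9, 21.9 to 24.9 and 31.7 to 34.6 in the same groups. Of these only Pdgfra, Pdgfrb and Col1a1 averaged at least 1, and Col1a2, Dcn and Lum did not exceed 0.216 in any library. T cell, endothelial and hepatocyte markers stayed at or under a sum of 0.501. Acinar markers summed to 8.94 to 11.5, 8.44 to 9.4 and 11.4 to 13.4, nearly all of it Cela1. The part of these shifts in the results below was not tested.

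Below, the words with IFNγ stand for treated all against untreated all. In that comparison the early classical pathway genes C1ra, C1s1 and C4b and the alternative pathway gene Cfb rose. C3, on which the pathways converge, fell. In PD-L1 high cells C1ra, C1s1 and Cfb were higher still than in treated all. C3 was also higher there than in treated all, with the largest log2 difference of the 5 tested genes. Against untreated all, C3 in PD-L1 high, likewise IFNγ-treated, was higher by a log2 fold change of 0.20, a call lost in some refits. Serping1 was too low for the main test but had separate groups in the same order. C2, Cd55 and Cd59a stayed under 1 in every library. C2 in PD-L1 high lay below treated all, and its untreated libraries spanned both. In bulk libraries, a change in the share of cells that express a gene and a change per cell cannot be told apart.

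**Figure D1:**
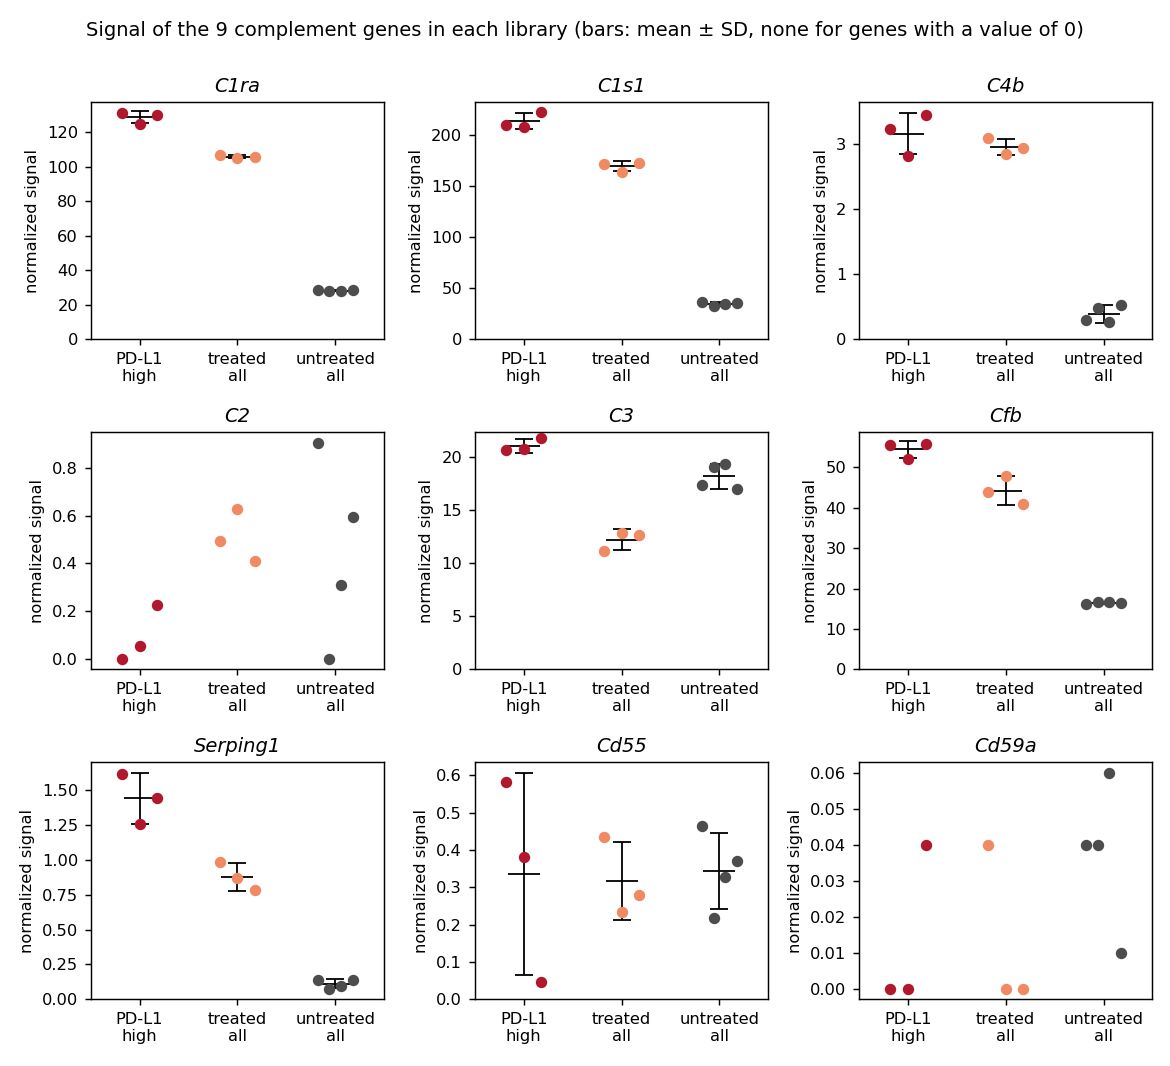
Normalized signal (vertical axes, own scale for each gene) of the 9 complement genes, 1 point per library, with bars at the mean ± SD of PD-L1 high (n = 3), treated all (n = 3) and untreated all (n = 4), left out for C2 and Cd59a, which have values of 0. C1ra, C1s1, Cfb and Serping1 step down across the groups from left to right, C3 is lowest in treated all, and C2, Cd55 and Cd59a stay under 1.

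C1ra (ENSMUSG00000055172, chromosome 6, 124512405 to 124523443, plus strand, GRCm38) encodes the protease C1r, which starts the classical pathway. Its signal was 131, 125 and 130.1 in PD-L1 high, 107, 105 and 106 in treated all, and 28.5, 27.9, 27.8 and 28.7 in untreated all. The 3 groups did not overlap, and the spread within each was small beside the steps between them. The log2 fold change was 1.87 ± 0.03 in treated all against untreated all (adjusted p = 3.1e-13, or 2.4e-10 without untreated libraries 3 and 4). Between PD-L1 high and treated all it was 0.28 ± 0.03 (adjusted p = 5.4e-05, or 6.1e-04 without these libraries).

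C1s1 (ENSMUSG00000038521, chromosome 6, 124530345 to 124542359, minus strand) encodes C1s, the protease that C1r activates, and lies next to C1ra on the opposite strand. It had 210.1, 208 and 222 in PD-L1 high, 172, 164 and 173 in treated all, and 36.6, 32.7, 34.3 and 35.3 in untreated all. Again no library of one group reached the values of another. It rose with IFNγ by 2.25 ± 0.04 (adjusted p = 2.1e-12, or 8.5e-10 without untreated libraries 3 and 4). The step from treated all to PD-L1 high was 0.33 ± 0.04 (adjusted p = 2.7e-04, or 0.0015 without them). Both genes have a near-identical copy close by. Of the 50-base windows of the longest GENCODE transcript, 48% of C1ra's occur in C1rb and 24.3% of C1s1's in C1s2. Those copies were listed at no more than 0.11 for C1rb and 0.0871 for C1s2 in any library, but how the authors assigned shared reads is not known here.

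C4b (ENSMUSG00000073418, chromosome 17, 34728380 to 34743882, minus strand) encodes C4, which C1s cuts. It had 3.23, 2.82 and 3.44 in PD-L1 high, 3.09, 2.84 and 2.94 in treated all, and 0.292, 0.483, 0.26 and 0.533 in untreated all. Both treated groups lay far above the untreated one and overlapped each other. C4b passed the filter on low signal only through the treated groups, where it is high. Its log2 fold change with IFNγ was 1.51 ± 0.09 (adjusted p = 1.4e-07, or 7.0e-06 without untreated libraries 3 and 4), and 2.68 with a pseudocount of 0.1. PD-L1 high and treated all differed by 0.07 ± 0.10, which did not pass the test (adjusted p = 0.66). C4a, a copy that holds 35.2% of C4b's 50-base windows, makes the split of reads uncertain. It was listed at 0.57, 0.288 and 0.87 in PD-L1 high, 0.223, 0.605 and 0.859 in treated all, and 0.854, 1.35, 1.3 and 0.928 in untreated all.

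C2 (ENSMUSG00000024371, chromosome 17, 34862604 to 34898265, minus strand) encodes the partner of C4 in the classical C3-cleaving enzyme. It was listed at 0, 0.054 and 0.226 in PD-L1 high, 0.492, 0.629 and 0.411 in treated all, and 0.903, 0, 0.31 and 0.595 in untreated all. The PD-L1 high libraries lay below the treated all libraries, and the untreated libraries spanned both. An exact permutation test (two-sided) gave p = 0.1 for PD-L1 high against treated all, the smallest that 3 against 3 libraries allow, and an adjusted p of 0.3 over 12 such tests. C2 was not among the tested genes. Another annotated gene, Gm20547, overlaps C2 and Cfb on the same strand, and its transcripts hold 58% of the 50-base windows of C2 and 81.4% of those of Cfb.

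C3 (ENSMUSG00000024164, chromosome 17, 57203970 to 57228136, minus strand) encodes the component whose fragments coat target surfaces. Its signal was 20.6, 20.7 and 21.8 in PD-L1 high, 11.1, 12.8 and 12.7 in treated all, and 17.4, 19.0, 19.3 and 17.0 in untreated all. Treated all lay below every other library and PD-L1 high above every other library. C3 fell by 0.54 ± 0.06 on the log2 scale in treated all against untreated all (adjusted p = 2.1e-05, or 4.3e-04 without untreated libraries 3 and 4). PD-L1 high was above treated all by 0.74 ± 0.07 (adjusted p = 1.8e-05, or 1.5e-04 without them). Against untreated all, PD-L1 high was higher by 0.20 ± 0.06 (adjusted p = 0.016). That last call was lost without untreated libraries 3 and 4 (log2 0.20, adjusted p = 0.064) and without PD-L1 high library 3 (log2 0.18, adjusted p = 0.060). No other gene shared any of C3's 50-base windows.

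Cfb (ENSMUSG00000090231, chromosome 17, 34856374 to 34862518, minus strand) encodes factor B, which binds cleaved C3 to build the alternative enzyme. It had 55.5, 52.0 and 55.9 in PD-L1 high, 43.9, 47.9 and 40.8 in treated all, and 16.3, 16.7, 16.7 and 16.4 in untreated all. The groups did not overlap, with the widest spread in treated all. Transcripts of Gm20547 hold 81.4% of Cfb's 50-base windows, and how the authors assigned shared reads is not known here. The log2 fold change of Cfb with IFNγ was 1.36 ± 0.05 (adjusted p = 1.7e-09, or 3.2e-07 without untreated libraries 3 and 4). PD-L1 high was above treated all by 0.30 ± 0.05 (adjusted p = 0.0026, or 0.011 without them). Cfb and C3 thus differed in direction in treated all against untreated all and had the same direction in PD-L1 high against treated all.

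**Figure D2:**
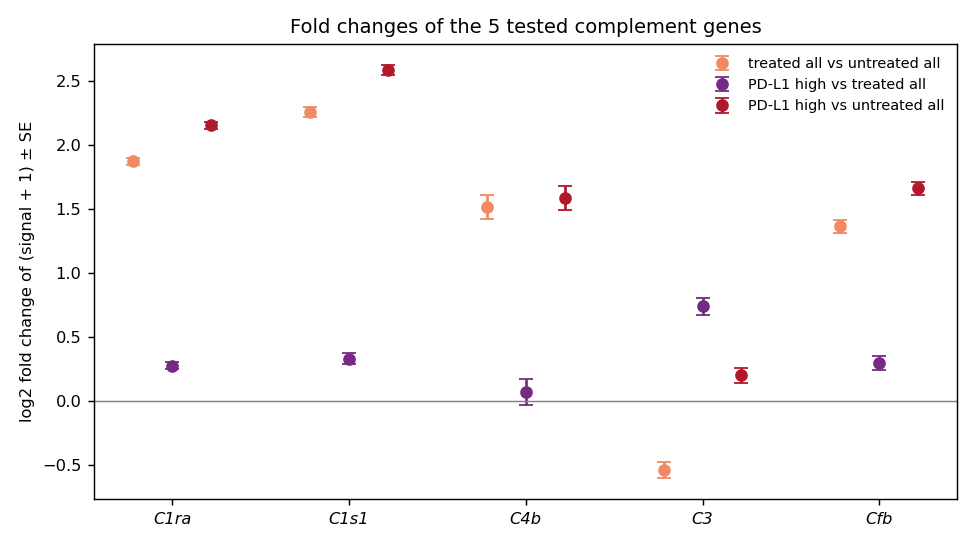
Log2 fold changes of signal + 1 (vertical axis, points, with bars of ± 1 SE) for the 5 tested complement genes in the 3 comparisons. C3 is the only one of the 5 below 0 in treated all against untreated all, at −0.54. It has the largest difference between PD-L1 high and treated all, 0.74, and lies above 0 in PD-L1 high against untreated all.

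Serping1 (ENSMUSG00000023224, chromosome 2, 84765387 to 84775444, minus strand) encodes the inhibitor that inactivates C1r and C1s. It was at 1.62, 1.25 and 1.44 in PD-L1 high, 0.984, 0.866 and 0.784 in treated all, and 0.141, 0.078, 0.0928 and 0.136 in untreated all. The 3 groups were apart from each other. Its mean over the 10 libraries, 0.74, kept it below the filter. With no filter on low signal, where 17783 genes were tested, the log2 fold change was 0.76 ± 0.07 in treated all against untreated all. The limma adjusted p was 1.4e-05, or 0.0012 without untreated libraries 3 and 4, and 42.5% of genes were called in the fit to all 10 libraries. PD-L1 high was above treated all by 0.38 ± 0.07 (adjusted p = 0.0073, with 15.5% of genes called, or 0.045 without untreated libraries 3 and 4). The exact permutation test (two-sided) gave p = 0.057 and p = 0.1 in these comparisons. These are the smallest values that 3 against 4 and 3 against 3 libraries allow. Each had an adjusted permutation p of 0.3 over the 12 such tests. The test of 3 against 4 takes untreated libraries 3 and 4 as independent of 1 and 2, and was not run without them.

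Cd55 (ENSMUSG00000026399, chromosome 1, 130439027 to 130462744, minus strand) encodes decay-accelerating factor, which takes apart the C3-cleaving enzymes. It was at 0.581, 0.382 and 0.0462 in PD-L1 high, 0.434, 0.235 and 0.28 in treated all, and 0.464, 0.219, 0.327 and 0.37 in untreated all. The groups overlapped fully, and the means of 0.336 ± 0.27 (SD, n = 3), 0.316 ± 0.10 (SD, n = 3) and 0.345 ± 0.10 (SD, n = 4) differed by less than their spread. Cd59a (ENSMUSG00000032679, chromosome 2, 104095801 to 104115354, plus strand) encodes a blocker of the membrane attack complex. It was listed at 0, 0 and 0.04 in PD-L1 high, 0.04, 0 and 0 in treated all, and 0.04, 0.04, 0.06 and 0.01 in untreated all. Both were below the filter, so no change at these signals could have been called in the main test. With no filter, neither was called in any comparison (adjusted p of 0.32 or more), where 42.5%, 15.5% and 41.0% of genes were called in treated all against untreated all, PD-L1 high against treated all and PD-L1 high against untreated all.

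Of the 9 genes, 5 passed the filter on low signal and 4 (C2, Serping1, Cd55 and Cd59a) did not. In treated all against untreated all 4 of the 5 were called higher, all by at least 2-fold on the log2(signal + 1) scale, and 1 was called lower. Over all tested genes 23.1% were called higher and 38.8% lower, 61.9% in all (47.6% without untreated libraries 3 and 4), and 2.81% were called and at least 2-fold higher. Median-ratio scaling gave 51.5% of calls as higher in that comparison, against 37.3% for the signal as deposited. Set against treated all, PD-L1 high had 4 of the 5 called higher, none lower and C4b not called. Over all tested genes 11.5% were called higher and 14.1% lower, 25.6% in all (16.5% without those libraries). Upper-quartile scaling gave 57.6% of calls as higher, against 44.9% for the signal as deposited. Set against untreated all, PD-L1 high had the 5 called higher, beside 19.1% of all tested genes higher and 41.0% lower, 60.1% in all (44.0% without those libraries). Of those calls 31.7% were higher, and 51% with median-ratio scaling. The median log2 fold change of the 5 was 1.51, 0.30 and 1.66 in these comparisons, beside −0.075, −0.007 and −0.10 over all tested genes. The genes were chosen with earlier results of these data known, C4b entered only through the groups where it is high, and the comparisons share libraries, so these counts describe the 5 genes and support nothing further.

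Other parts of the complement system were described with 47 further genes, of which 10 were tested. With IFNγ, treated all against untreated all, 2 of the 10 were called higher, 3 lower and 5 neither (median log2 fold change −0.14), beside 23.1% of all tested genes higher and 38.8% lower. Between PD-L1 high and treated all the counts were 3 higher, 1 lower and 6 neither (median 0.089), beside 11.5% and 14.1% of all tested genes, and the higher call of C4bp was lost in most refits, as given below. Between PD-L1 high and untreated all they were 2 higher, 3 lower and 5 neither (median −0.11), beside 19.1% and 41.0% of all tested genes. These shares rest on few genes and are read as no more than counts. Without untreated libraries 3 and 4, the call of Cfp with IFNγ was lost. So were those of Cfd and Itgb2 in PD-L1 high against untreated all, as given below. The medians over all tested genes are those given above. Of the 56 genes described, 38 of the 41 that were not tested stayed under 1 in every library, and 11 were at 0 in all 10.

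**Figure D3:**
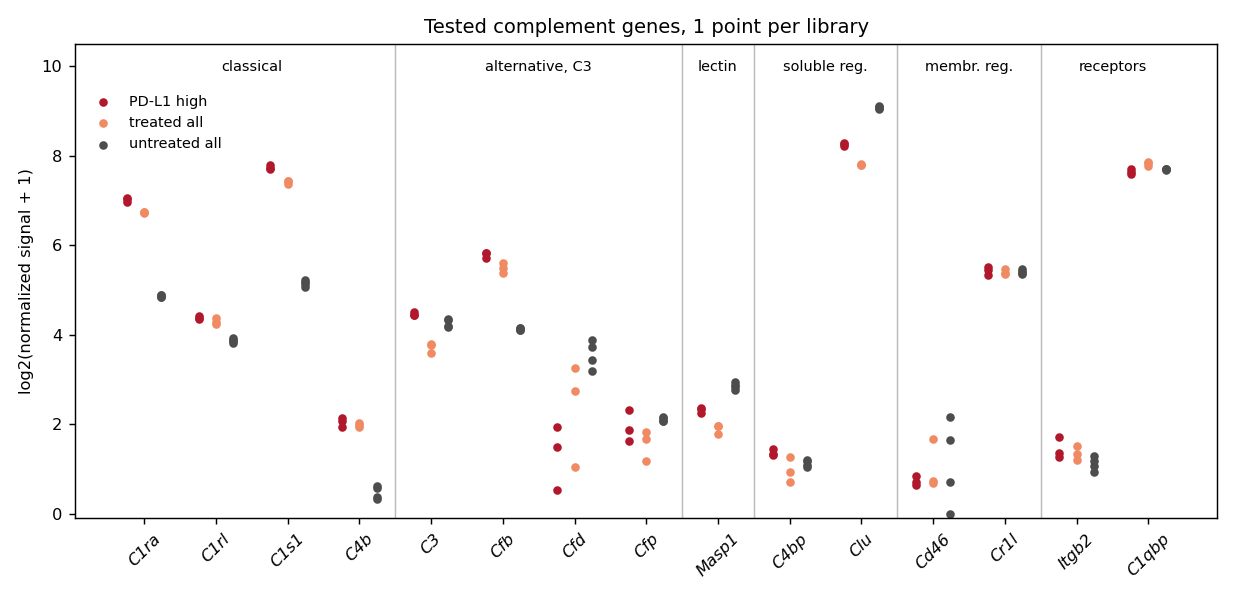
Log2(normalized signal + 1) (vertical axis) of 15 tested complement genes by role, 1 point per library, with PD-L1 high, treated all and untreated all from left to right for each gene. For Clu, Masp1 and C3 every treated all library is below all other libraries. For C1ra, C1s1, C4b, Cfb and C1rl every untreated all library is below all others.

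On the recognition side, C1qa, C1qb and C1qc, which encode the chains of C1q, did not exceed 0.12, 0.29 and 0.07 in any library. C1rl, a C1r-like protease gene, had 20.3, 19.9 and 19.4 in PD-L1 high, 19.8, 17.9 and 18.4 in treated all, and 14.2, 13.2, 13.7 and 13.6 in untreated all. Both treated groups lay above the untreated one. It rose with IFNγ by 0.42 ± 0.05 (adjusted p = 1.4e-05, or 7.9e-04 without untreated libraries 3 and 4), and the difference of PD-L1 high from treated all, 0.09 ± 0.05, did not pass the test (adjusted p = 0.23). Of 8 lectin pathway genes only Masp1, a protease gene of that pathway, was tested, and 5 (Masp2, Mbl1, Mbl2, Fcnb and Colec10) were at 0 throughout. Masp1 had 3.77, 4.15 and 4.06 in PD-L1 high, 2.89, 2.91 and 2.44 in treated all, and 6.66, 5.81, 6.09 and 6.36 in untreated all. It fell by 0.95 ± 0.07 with IFNγ (adjusted p = 5.4e-07, or 6.8e-05 without untreated libraries 3 and 4) and was higher in PD-L1 high than in treated all by 0.42 ± 0.07 (adjusted p = 0.0023, or 0.015 without them).

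Of the other alternative pathway genes, Cfd, which encodes the protease that cleaves factor B, varied widely within groups. It had 2.83, 0.459 and 1.8 in PD-L1 high, 8.64, 1.07 and 5.69 in treated all, and 8.11, 13.7, 12.3 and 9.88 in untreated all. PD-L1 high lay below untreated all, and treated all overlapped both. Its log2 fold change was −2.24 ± 0.54 in PD-L1 high against untreated all (adjusted p = 0.0078), a call lost without untreated libraries 3 and 4 (adjusted p = 0.059). In treated all against untreated all it was −1.21 ± 0.54 and not called (adjusted p = 0.087), though called without treated all library 1 (−1.67, adjusted p = 0.031) and at −0.56 without treated all library 2 (adjusted p = 0.24). Between PD-L1 high and treated all it was −1.03 ± 0.58 and not called (adjusted p = 0.24), though called without treated all library 2 (−1.68, adjusted p = 0.019). It was −0.57 without treated all library 1 (adjusted p = 0.52) and −0.64 without PD-L1 high library 2 (adjusted p = 0.50). Cfp, which encodes the enzyme-stabilizing protein properdin, fell by 0.55 ± 0.17 with IFNγ (adjusted p = 0.016). That call was lost without untreated libraries 3 and 4 (adjusted p = 0.073) and without treated all library 1 (−0.36, adjusted p = 0.071). None of the 7 terminal component genes, which build the membrane attack complex, was tested. All but C8g stayed under 1.

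Among the soluble regulators, Clu encodes clusterin, a chaperone that also inhibits the membrane attack complex. Its signal was 306, 311 and 298 in PD-L1 high, 221, 224.5 and 222 in treated all, and 531, 551.5, 536 and 544 in untreated all. The 3 groups did not overlap, and the order was untreated all above PD-L1 high above treated all. Clu fell by 1.28 ± 0.02 with IFNγ (adjusted p = 7.5e-13, or 8.2e-10 without untreated libraries 3 and 4) and was higher in PD-L1 high than in treated all by 0.45 ± 0.02 (adjusted p = 1.7e-07, or 7.2e-06 without them). C4bp, which encodes a C4-binding inhibitor, was called higher in PD-L1 high than in treated all (0.39 ± 0.13, adjusted p = 0.048). That call was lost without untreated libraries 3 and 4 (adjusted p = 0.11) and without any 1 of 9 of the 10 libraries, and the value was 0.26 without treated all library 2.

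Of the membrane regulators, Cr1l, which encodes the rodent inhibitor Crry, had 39.2, 42.9 and 45.1 in PD-L1 high, 40.4, 40.8 and 43.7 in treated all, and 43.2, 39.9, 40.9 and 42.2 in untreated all. The groups overlapped. Its log2 differences were 0.00 ± 0.05 with IFNγ and 0.02 ± 0.05 between PD-L1 high and treated all, and neither was called (adjusted p = 0.98 and 0.78). The difference between PD-L1 high and untreated all, 0.03 ± 0.05 (adjusted p = 0.68), was called with median-ratio scaling (0.13, adjusted p = 0.044). Cd46 was uneven, from 0 to 3.52 among the untreated libraries, and was not called. Cd55b and Cd59b, the copies of Cd55 and Cd59a, were at 0 in all libraries. Of 10 receptor and binding protein genes, 8 stayed under 1 in every library, among them C3ar1 and C5ar1, which encode the receptors of the C3 and C5 fragments. C1qbp, a mitochondrial protein gene named for its binding to C1q, had 199.7, 207 and 192 in PD-L1 high, 226, 231 and 219 in treated all, and 207, 207, 209 and 204 in untreated all. It rose by 0.12 ± 0.03 with IFNγ (adjusted p = 0.0022, or 0.023 without untreated libraries 3 and 4) and was lower in PD-L1 high than in treated all by a log2 fold change of −0.18 ± 0.03 (adjusted p = 0.0014, or 0.0072 without them). Itgb2, which encodes the shared chain of the complement receptor integrins, was called higher in PD-L1 high than in untreated all (0.32 ± 0.13, adjusted p = 0.047), and Itgam and Itgax, which encode its partners, were near 0. The call of Itgb2 was lost without untreated libraries 3 and 4 (adjusted p = 0.15) and without any 1 of 6 libraries, and the value was 0.19 without PD-L1 high library 2.

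**Figure D4:**
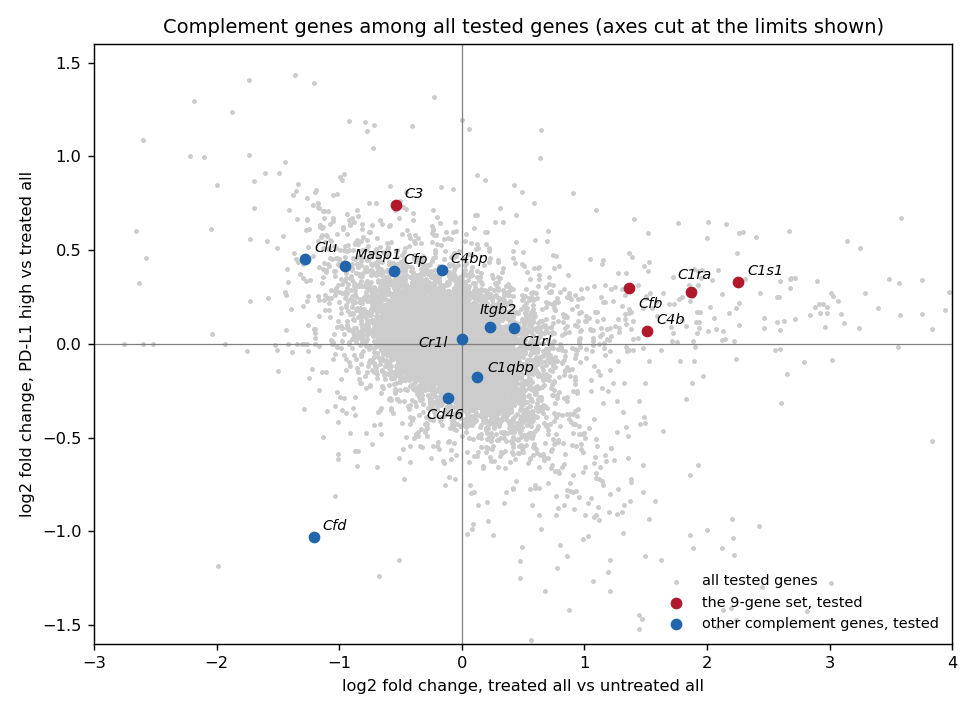
Log2 fold change in treated all against untreated all (horizontal axis) and PD-L1 high against treated all (vertical axis) for all tested genes (grey), the 5 tested genes of the set (red) and 10 other complement genes (blue), with 69 genes outside the plotted range. C1ra, C1s1, Cfb and C4b lie to the right at 1.36 to 2.25, and C3, Clu, Masp1, Cfp and C4bp lie in the upper left. The axes share treated all, so values low there by chance lie up and to the left.

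Genes with the most similar pair of differences, treated all minus untreated all and PD-L1 high minus treated all, were found by distance on the log2(signal + 1) scale over the 3 group means, among about 11024 named tested genes. For C3, at −0.54 and 0.74, these were Slc26a6 (distance 0.022), Hk1os (0.025) and Ankrd1 (0.042). For Cfb, at 1.36 and 0.30, they were Gpa33 (0.019), Trim34a (0.05) and Apob (0.06). For Serping1, at 0.76 and 0.38, they were Mmp13 (0.029), Cdh18 (0.045) and Panx1 (0.056). For Cd55, at −0.031 and 0.004, they were Trim3, Snx6 and Tram2, all within 0.0032. Serping1 and Cd55 were below the filter, where adding 1 to the signal shrinks log2 differences. Their nearest genes therefore depend on that added 1, and the small differences of Cd55 do not show that it was unchanged. The likeness rests on group means only and is a description.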

How the data were processed

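A TruSeq kit and 5 µg of RNA were used for each library, per the labels. The submitters' processing notes name mm10 and CASAVA 1.7. Aligner, counting, annotation and strand handling: not given in the sources used here. What the authors deposited is normalized signal by gene, in 10 library columns. The 3 deposited group means were not used. Library totals of 698396 to 715500 are set by the normalization, and depth is unknown.

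Of 25507 rows, 695 had no value. Rows that shared a symbol (52 symbols) were added up. All 10 libraries were fitted together in limma 3.58.1 under R 4.3.3 (trend and robust options, group means) on log2(signal + 1) of 11487 genes with mean signal of at least 1, and p-values were adjusted by Benjamini-Hochberg. The code was tested on simulated data in which all libraries were independent, which untreated libraries 3 and 4 do not appear to be. The 4 members below the filter were compared by exact permutation (scipy 1.17.1). Coordinates are from GENCODE on GRCm38, the assembly of mm10. Figures used matplotlib 3.10.9.

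Titles set the groups. Alternatives were other pseudocounts, filters, scalings, thresholds and variance models, a replicate block and leaving libraries out. Named genes were the 9 members, the genes of a list of 56 complement genes that were called in a comparison, Cd274, and the 3 genes nearest to each of C3, Cfb, Serping1 and Cd55. Genes of that list with no call, such as Cr1l, Cd46 and those near 0, were named after their values were seen. The members and lists were chosen with earlier results of these data known. A further gene and a further motif are not reported here.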

Additional observations from a re-analysis of the deposited data

How the results depend on the processing

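The 5 tested members kept their direction in every refit that held them, C4b dropping out of the test at a mean signal of at least 5, and their calls in all but 3 of 297 refits. All 3 concern C3 in PD-L1 high against untreated all: without untreated libraries 3 and 4, without PD-L1 high library 3, and at an adjusted p under 0.01 (adjusted p = 0.016 in the fit to all libraries). The cause was not tested. Of the other 10 complement genes, 30 of 585 refits lost a call, 7 gained one and 15 changed sign, all 15 in values that were not called. Calls gained by leaving out a library were, beside those given above for Cfd, C4bp with IFNγ without treated all library 1 (−0.32, adjusted p = 0.020), C4bp in PD-L1 high against untreated all without that library (0.23, adjusted p = 0.044) and C1qbp in that comparison without PD-L1 high library 2 (−0.078, adjusted p = 0.034). Cd46 with IFNγ was 0.28 with a pseudocount of 0.1 and 0.24 with the replicate block, and ran from −0.49 to 0.24 with single libraries left out. Its PD-L1 high to treated all difference ran from −0.46 to 0.031. Cr1l ran from −0.033 to 0.022 with IFNγ, −0.021 to 0.078 in PD-L1 high against treated all and −0.019 to 0.080 against untreated all, and Itgb2 from −0.038 to 0.18 in PD-L1 high against treated all. C1qbp in PD-L1 high against untreated all was 0.053 with median-ratio and 0.0041 with upper-quartile scaling. Complement genes called lower with IFNγ numbered 2 of the 9 still tested at a mean signal of at least 5, against 4 of 15, since Cfp and Masp1 fell below that filter (over all genes 3770 of 9383 were called lower there), and those called lower between PD-L1 high and treated all numbered 1 to 2 with single libraries left out. Over all genes, PD-L1 high against treated all had 719 higher and 826 lower at an adjusted p under 0.01, and 1009 lower without untreated libraries 3 and 4, against 1320 higher and 1623 lower. PD-L1 high against untreated all had 3116 lower with median-ratio scaling, against 4711. Same-numbered deviations correlated at −0.18 to 0.10 over 9 pairs. This shows no clear pairing by replicate number but cannot exclude it, since differently numbered libraries were not compared. The replicate block left 2487 higher and 4031 lower genes with IFNγ and the calls of all tested members as they were, and took away those of C4bp (adjusted p = 0.089) and Itgb2 (adjusted p = 0.096). Only untreated all has a library numbered 4, so the block fitted that library exactly and drew nothing from it. This refit therefore also leaves that library out, while it keeps untreated library 3. Depth is unknown and sets a limit for the 4 members under the filter.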
